A study of Mus musculus with 24 samples.

Results

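Mouse peritoneal macrophages were compared for the 6 genes that make up the receptors for the constant (Fc) part of IgG antibodies: Fcgr1, Fcgr2b, Fcgr3, Fcgr4, Fcer1g and Fcgrt. These members were taken by symbol from a table of 54532 Ensembl genes, and each symbol matched a single identifier. All 6 passed the filter on low counts, which kept 14692 genes. PolyA RNA was sequenced in 24 libraries, in 6 groups of 4. M1 macrophages had received LPS and IFN-γ, M2 macrophages had received IL4, and M0 macrophages were the untreated controls; each state was also sampled with ONX-0914, an inhibitor selective for the immunoproteasome subunit LMP7 (Psmb8). The groups are called M1+ONX, M1, M2+ONX, M2, M0+ONX and M0 below. A replicate is a pool of 50000 cells from 2 to 3 mice. The sources used here do not state strain, age, dose or time.

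IgG Fc receptors tie antibodies to phagocytes. Mouse macrophages carry activating receptors (FcγRI, FcγRIII and FcγRIV, encoded by Fcgr1, Fcgr3 and Fcgr4), which bind IgG with their own ligand-binding chain and signal through the ITAM motif of a shared partner, the common γ chain (Fcer1g). They are opposed by a single inhibitory receptor, FcγRIIB (Fcgr2b), whose ITIM motif recruits the lipid phosphatase SHIP-1 (Inpp5d). FcRn (Fcgrt), a relative of MHC class I that pairs with β2-microglobulin, binds IgG in acidic endosomes and returns it to the cell surface. IFN-γ is a classical inducer of FcγRI, and IL-4 is known to raise the inhibitory receptor in mouse macrophages.

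The genes lie on 3 chromosomes in GRCm38 (GENCODE M21). Fcgr1 (ENSMUSG00000015947) lies at chr3:96282909-96293969 on the minus strand. Fcgr2b (ENSMUSG00000026656, chr1:170958617-170976547, minus strand), Fcgr4 (ENSMUSG00000059089, chr1:171018920-171029761, plus strand), Fcgr3 (ENSMUSG00000059498, chr1:171051174-171064935, minus strand) and Fcer1g (ENSMUSG00000058715, chr1:171229572-171234365, minus strand) are neighbours on chromosome 1. Fcgrt (ENSMUSG00000003420) lies at chr7:45092990-45103851 on the minus strand. Fcgr2b and Fcgr3 have near-identical stretches. Of the 50-base windows of their protein-coding transcripts, 166 were the same in both genes, which was 10.2% of the Fcgr3 windows and 4.48% of the Fcgr2b windows; no 150-base window of Fcgr3, the length of a read, was found in another gene. Of the 150-base windows of Fcgr2b, 114 (2.88%) were found in another gene, 106 of them in Cplx2. The antisense gene Gm38204 shares 155 exon bases with Fcgr2b and held 85 counts over all libraries, against 194365 for Fcgr2b. Whether the counting used strand is not given in the sources used here, so reads from this pair cannot be told apart.

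The promoters of Fcgr1 and Fcgr4 are shown because these receptor genes had the largest increases in M1 cells. Both are RefSeq sequence (GRCm38.p6) from upstream of the annotated start, 5′ to 3′ on the gene's strand: the 250 bases at chr3:96293970-96294219 (minus strand) for Fcgr1, and the 244 bases at chr1:171018676-171018919 (plus strand) for Fcgr4. Capitals mark the matches to 4 motifs searched on both strands: TTCNNNGAA (a GAS element), TTCNNNNGAA (the form preferred by STAT6), GAAANNGAAA (the core of an interferon-stimulated response element) and GAGGAA (a core of PU.1 sites).
Fcgr1 promoter: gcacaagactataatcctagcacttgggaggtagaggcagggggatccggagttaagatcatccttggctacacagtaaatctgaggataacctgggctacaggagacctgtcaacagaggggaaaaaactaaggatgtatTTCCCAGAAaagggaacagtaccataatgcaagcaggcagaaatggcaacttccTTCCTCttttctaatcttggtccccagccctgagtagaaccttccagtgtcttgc
Fcgr4 promoter: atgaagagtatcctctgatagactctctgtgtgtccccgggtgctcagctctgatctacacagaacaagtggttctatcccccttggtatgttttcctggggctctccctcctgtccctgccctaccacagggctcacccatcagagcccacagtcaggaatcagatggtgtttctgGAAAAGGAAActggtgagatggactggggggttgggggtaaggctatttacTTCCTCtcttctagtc
In Fcgr1, the GAS letters TTCCCAGAA end 101 bases before the start, and TTCCTC, the PU.1 core read on the other strand, ends 50 bases before it. In Fcgr4, GAAAAGGAAA ends 64 bases and TTCCTC 17 bases before the start. In Fcgr3, the only match was TTCCTC. None of the 4 motifs was found in the windows of Fcgr2b, Fcer1g and Fcgrt. Among 32851 RefSeq windows of the same length, the GAS letters were found in 7.02%, the STAT6 form in 5.85%, the response element core in 2.98% and the PU.1 core in 23.3%. These matches describe letters in a window and do not show that a factor bound there.

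Library totals ran from 18.2 to 22.9 (in units of 1e6 counts). Replicate 2 of M1 stood apart, with 0.300% mitochondrial counts against 1.07 to 1.14% in the other M1 libraries. Its correlation with them was at most 0.979 (log2 CPM, Pearson), and results that move by its removal are given without it. Macrophage markers summed to between 9877 and 13676 CPM (counts per 1e6 library counts, scaled by TMM) on group average, and at least 11 of the 12 were above 1 CPM in each group. Of the T and NK cell markers, 11 of 12 averaged under 1 CPM in each group, and the exception was Il7r. The neutrophil markers S100a9, Ly6g and Retnlg were at 0 in every library, while Csf3r was present at 44.0 to 137 CPM. The mast cell and basophil list summed to at most 24.7 CPM, most of it Hdc, and the dendritic cell list to at most 10.3 CPM. In these pooled cells, fewer cells of a type and less RNA per cell cannot be told apart.

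The polarizing treatments moved the receptor genes in different patterns. In M1 against M0, Fcgr1, Fcgr4 and Fcer1g rose and Fcgr2b, Fcgr3 and Fcgrt fell, so that all 6 were called at an adjusted p under 0.05; of all genes tested, 68.8% were called in this comparison, 34.6% higher and 34.2% lower. In M2 against M0, Fcgr2b rose, Fcgr1, Fcgr4, Fcer1g and Fcgrt fell, and Fcgr3 was not called, beside 36.2% of all genes called, 18.7% higher and 17.5% lower. M1 against M2 called 5 of 6 members, 3 higher and 2 lower, beside 66.6% of all genes, 32.2% higher and 34.4% lower. With the inhibitor in both groups, M1+ONX against M0+ONX called all 6 members, 3 higher and 3 lower, beside 71.8% of all genes (34.4% higher, 37.4% lower), and M2+ONX against M0+ONX called all 6, with Fcgr2b higher and the other 5 lower, beside 40.7% (22.1% higher, 18.6% lower). With calls this common among all genes, the counts say little about the family, and the values of each member are given below.

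Most of the family was lower with ONX-0914 in polarized cells. In M1, 5 of 6 members fell (Fcgr1, Fcgr2b, Fcgr3, Fcgr4 and Fcer1g), beside 44.3% of all genes called and 27.7% called lower. In M2, 4 of 6 fell (Fcgr1, Fcgr2b, Fcgr3 and Fcer1g), beside 36.4% called and 18.8% called lower. In M0, Fcgr1 and Fcer1g fell and Fcgr4 rose, beside 21.0% of all genes called, 9.54% higher and 11.4% lower. The effect in M1 was lower than that in M0 for 4 members, beside 19.3% of all genes called in this difference and 12.4% called lower. The effect in M2 was lower than that in M0 for 2 members, beside 6.17% called and 2.74% called lower, and the effect in M1 was lower than that in M2 for 2 members, beside 13.5% called and 9.68% called lower. The median log2 change of the members was -0.37 in M1, -0.22 in M2 and -0.05 in M0, and over all genes tested it was -0.08, -0.00118 and -0.000824 in the same order. Fcgrt was not called in any of the 3. Macrophage markers also moved. Of 12, 7 fell and 2 rose in M1 (median log2 change -0.54, with Csf1r at -0.77 and Adgre1 at -0.69). The list was not uniform: Cd14 averaged 267 CPM in M1+ONX and 221 CPM in M1. Cd68 averaged 2165 CPM in M1+ONX and 2267 CPM in M1. In M2, 5 fell and 1 rose (median -0.14), and 2 rose without M1 replicate 2. In M0, 2 fell and 2 rose (median 0.03). The sum of the 12 was 9877 ± 247 CPM in M1+ONX and 12786 ± 1393 CPM in M1, 11221 ± 561 CPM in M2+ONX and 13676 ± 545 CPM in M2, and 11475 ± 506 CPM in M0+ONX and 13527 ± 932 CPM in M0. Lyz2 made up most of each sum, so the sums mainly follow this gene. It averaged 6193 CPM in M1+ONX and 8588 CPM in M1, 7736 CPM in M2+ONX and 10114 CPM in M2. In M0+ONX it averaged 8336 CPM and in M0 10496 CPM. The part of these markers in the members' changes was not tested. Fitted on the M1+ONX and M1 libraries alone, 3 members were called in M1 in place of 5, with Fcgr4 and Fcer1g lost. In that fit 51.9% of the genes called in M1 were higher, against 37.4% over all libraries.

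**Figure D1:**
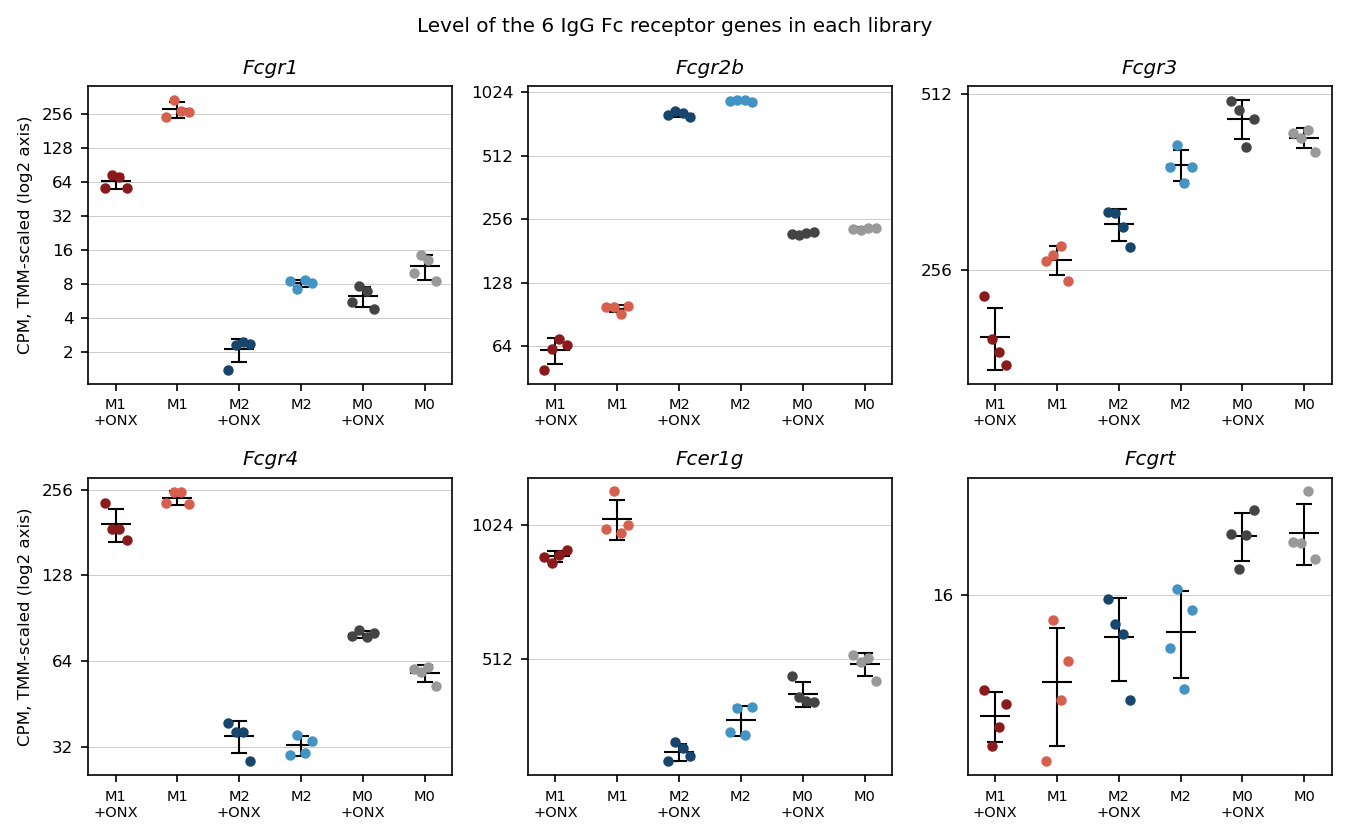
Level of each member in CPM (log2 axis) in the 6 groups; points are the 4 libraries, bars the mean ± SD. Fcgr1 and Fcgr4 were highest in the M1 groups and Fcgr2b in the M2 groups, and the M1+ONX libraries of Fcgr1 lay between 56.8 and 74.4 CPM, below all M1 libraries at 242 CPM or more.

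**Figure D2:**
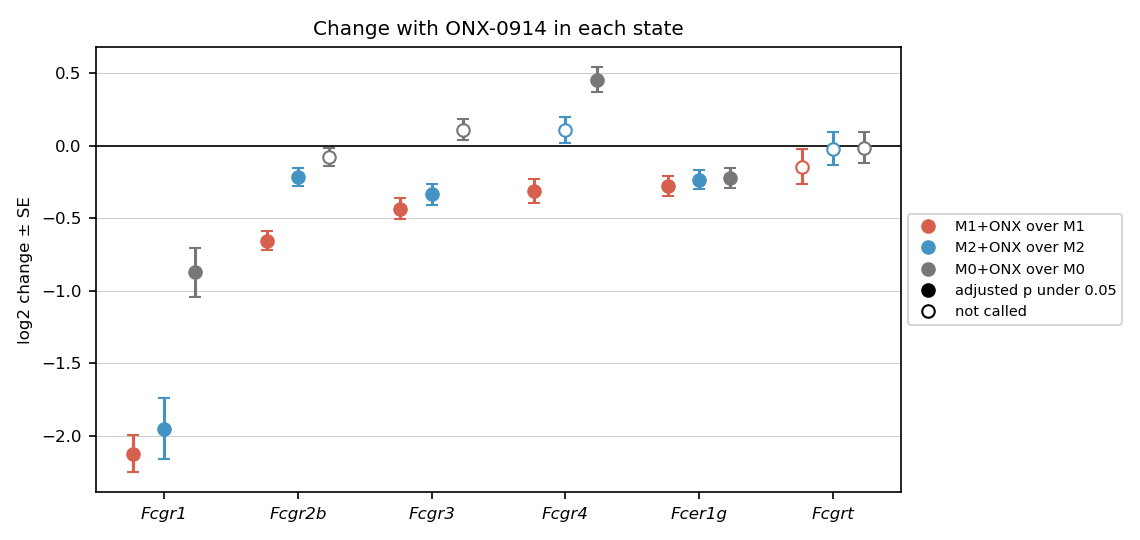
Log2 change with ONX-0914 over no inhibitor in M1, M2 and M0 for the 6 members, with its standard error; filled points passed an adjusted p of 0.05. Fcgr1 stands lowest, at -2.12 in M1, -1.95 in M2 and -0.87 in M0, and Fcgr4 in M0 is the only member called higher, at 0.46.

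Fcgr1 encodes FcγRI (CD64), the high-affinity receptor that binds monomeric IgG. It had 56.8, 74.4, 71.5 and 56.8 CPM in the M1+ONX libraries, against 242, 345, 272 and 269.9 CPM in the M1 libraries. The groups did not overlap, and the highest M1 value was replicate 2. ONX-0914 thus went with a 4.35-fold lower level in M1 (log2 change -2.12, SE 0.13, adjusted p = 2.43e-13), and the change was -2.01 without M1 replicate 2. In M2+ONX the libraries had 1.38, 2.31, 2.43 and 2.33 CPM, against 8.58, 7.30, 8.62 and 8.10 CPM in M2. Here too every library with the inhibitor was below every library without it (log2 change -1.95, SE 0.21, adjusted p = 3.48e-08), at low depth, since the 4 M2+ONX libraries held 171 Fcgr1 counts in all. In M0+ONX the values were 5.58, 7.69, 6.99 and 4.84 CPM, against 10.035, 14.6, 13.1 and 8.49 CPM in M0 (log2 change -0.87, SE 0.17, adjusted p = 0.000393). The M0 groups did not overlap either, although their edges lay close.

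The fall of Fcgr1 with ONX-0914 was larger in polarized cells. The log2 change was lower by 1.25 in M1 than in M0 (difference -1.25, SE 0.21, adjusted p = 8.74e-05) and by 1.08 in M2 than in M0 (difference -1.08, SE 0.28, adjusted p = 0.0173). The second difference was no longer called without M0+ONX replicate 2 (-0.97) or M2+ONX replicate 1 (-0.92). Between M1 and M2 the difference was -0.17 with a 95% interval of -0.72 to 0.37, which includes 0.

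Polarization moved Fcgr1 over the widest range of the family. M1 cells averaged 282 ± 44.1 CPM and M0 cells 11.5 ± 2.78 CPM (SD, n = 4 each), a 24.6-fold higher level in M1 (log2 change 4.62, SE 0.15, adjusted p = 1.29e-20). With the inhibitor in both groups, M1+ONX averaged 64.9 ± 9.39 CPM and M0+ONX 6.27 ± 1.30 CPM, a 10.3-fold difference (log2 3.37, SE 0.15, adjusted p = 4.88e-17). The M1+ONX level was thus below M1 and above every M0 library. M2 cells averaged 8.15 ± 0.615 CPM, lower than M0 (log2 change -0.49, SE 0.16, adjusted p = 0.0186), but the groups overlapped and the call was lost without M0 replicate 2 (-0.36) or M0 replicate 3 (-0.43). M2+ONX, at 2.12 ± 0.490 CPM, was 2.97-fold below M0+ONX (adjusted p = 1.80e-06). From high to low the order was M1, M1+ONX, M0, M2, M0+ONX and M2+ONX. In it, M0 and M2 overlapped, as did M2 and M0+ONX.

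Fcgr4 encodes FcγRIV, an activating receptor for IgG2a and IgG2b. It had 229.6, 187, 186 and 169.7 CPM in M1+ONX, against 229, 251, 251 and 227 CPM in M1. Replicate 1 of M1+ONX lay inside the M1 range and the other 3 lay below it (log2 change -0.31, SE 0.08, adjusted p = 0.00281). On the M1+ONX and M1 libraries alone the change was -0.22 and was not called. In M2+ONX the values were 39.0, 36.2, 36.2 and 28.5 CPM, against 30.0, 35.4, 30.6 and 33.8 CPM in M2. These groups overlapped, and the log2 change of 0.11 had a 95% interval of -0.07 to 0.29.

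In unpolarized cells Fcgr4 went the other way. M0+ONX libraries had 78.3, 82.6, 77.7 and 80.2 CPM, against 60.0, 58.8, 61.4 and 52.3 CPM in M0. All 4 inhibitor libraries were above all 4 control libraries (log2 change 0.46, SE 0.08, adjusted p = 0.000243). The effect in M1 was lower than that in M0 by 0.77 (difference -0.77, SE 0.12, adjusted p = 2.52e-05) and lower than that in M2 by 0.42 (difference -0.42, SE 0.12, adjusted p = 0.0194). The difference from M2 was no longer called without M1+ONX replicate 4 (-0.36), M2 replicate 1 (-0.38) or M2+ONX replicate 1 (-0.36). Between M2 and M0 the difference was -0.35 with an adjusted p of 0.101, and without M1 replicate 2, which belongs to neither state, it was called at -0.34.

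M1 cells had 240 ± 13.4 CPM of Fcgr4 and M0 cells 58.1 ± 4.02 CPM, a 4.12-fold higher level in M1 (log2 change 2.04, SE 0.09, adjusted p = 5.87e-18). With the inhibitor the step was 2.42-fold, with 193 ± 25.6 CPM in M1+ONX and 79.7 ± 2.22 CPM in M0+ONX. M2 cells had 32.5 ± 2.55 CPM, 1.79-fold below M0 (adjusted p = 1.17e-08), and M2+ONX 35.0 ± 4.52 CPM, 2.28-fold below M0+ONX (adjusted p = 1.30e-11). The order of levels was M1, M1+ONX, M0+ONX, M0, M2+ONX and M2, and only the first pair and the last pair of neighbours overlapped.

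Fcgr3 encodes FcγRIII, the low-affinity activating receptor for immune complexes. It had 231, 195, 185 and 176 CPM in M1+ONX, against 265, 272, 281 and 245 CPM in M1, without overlap (log2 change -0.43, SE 0.07, adjusted p = 1.89e-05). In M2+ONX it had 322, 320, 304 and 281 CPM, against 385, 418, 361 and 384 CPM in M2, again without overlap (log2 change -0.34, SE 0.07, adjusted p = 0.000508). In M0+ONX it had 499, 481, 415 and 464 CPM, against 439.8, 430.4, 445 and 408 CPM in M0. These overlapped, and the log2 change of 0.11 had a 95% interval of -0.04 to 0.26. The effect of ONX-0914 on Fcgr3 was lower in M1 than in M0 by 0.54 (difference -0.54, SE 0.10, adjusted p = 0.000296) and lower in M2 than in M0 by 0.45 (difference -0.45, SE 0.10, adjusted p = 0.00623).

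Unlike the other activating receptors, Fcgr3 fell in M1. M1 cells averaged 266 ± 15.2 CPM and M0 cells 431 ± 16.4 CPM, a 1.62-fold lower level (log2 change -0.70, SE 0.07, adjusted p = 2.00e-09), and M1+ONX at 197 ± 24.04 CPM was 2.36-fold below M0+ONX at 465 ± 36.1 CPM (adjusted p = 1.31e-14). In M2, at 387 ± 23.6 CPM, the log2 change against M0 was -0.16 with an adjusted p of 0.0949, and without M2 replicate 2 it was called at -0.21. M2+ONX, at 306 ± 19.1 CPM, was 1.52-fold below M0+ONX (adjusted p = 1.27e-07). The order was M0+ONX, M0, M2, M2+ONX, M1 and M1+ONX, and only M2 with M2+ONX and M1 with M1+ONX were neighbours that did not overlap.

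Fcer1g encodes the common γ chain, on which the activating receptors depend for signalling and, in large part, for surface expression. It had 867, 839, 877 and 899.5 CPM in M1+ONX, against 1002, 1218, 979 and 1022 CPM in M1. The groups did not overlap, and the highest value was M1 replicate 2 (log2 change -0.28, SE 0.07, adjusted p = 0.00120). The change was -0.20 without that library and stayed called; on the M1+ONX and M1 libraries alone it was -0.18 and was not called. In M2+ONX the values were 302, 333, 324 and 311 CPM, against 352, 397, 345 and 399 CPM in M2, without overlap (log2 change -0.23, SE 0.07, adjusted p = 0.00684). In M0+ONX they were 469, 421, 412 and 410.3 CPM, against 523, 505, 514 and 457 CPM in M0. Replicate 1 of M0+ONX lay above replicate 4 of M0, so the groups overlapped (log2 change -0.22, SE 0.07, adjusted p = 0.0174). That call was lost without M0 replicate 1 (-0.20), M0+ONX replicate 3 (-0.21) or M0+ONX replicate 4 (-0.20).

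None of the differences in this effect between states was called. The difference was -0.06 between M1 and M0, with a 95% interval of -0.25 to 0.14, and -0.01 between M2 and M0, with an interval of -0.21 to 0.18. M1 cells averaged 1055 ± 110.0 CPM and M0 cells 499.6 ± 29.6 CPM, 2.11-fold higher in M1 (log2 change 1.08, SE 0.07, adjusted p = 4.53e-14). With the inhibitor, M1+ONX had 871 ± 25.2 CPM and M0+ONX 428 ± 27.8 CPM, a 2.03-fold difference. M2 cells had 373 ± 28.7 CPM, 1.34-fold below M0 (adjusted p = 1.20e-05), and M2+ONX 317 ± 13.9 CPM, 1.35-fold below M0+ONX (adjusted p = 7.31e-06). In the order M1, M1+ONX, M0, M0+ONX, M2 and M2+ONX, only M0 and M0+ONX overlapped. Mast cells and neutrophils also express Fcer1g. Of their marker lists, Hdc averaged 23.1 CPM in M1 and 1.71 CPM in M0, and Csf3r 137 CPM in M1 and 44.0 CPM in M0. The mast cell genes Cpa3, Cma1, Kit and Tpsb2 did not follow Hdc, each with a lower mean in M1 than in M0 and none above 0.589 CPM in any group. Of the 4 neutrophil genes that passed the filter, 2 rose and 1 fell in M1 against M0. Of all genes, 34.6% were called higher and 34.2% lower. S100a8 averaged 8.57 CPM in M1 and 4.63 CPM in M0, and Cxcr2 0 CPM in M1 and 1.65 CPM in M0. The part of these cell types in the Fcer1g values was not tested.

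Fcgr2b encodes FcγRIIB, the inhibitory receptor, and was the only member that rose in M2. M2 libraries had 932, 945, 938 and 924 CPM, against 231, 227, 233 and 234 CPM in M0, a 4.04-fold higher level in M2 (log2 change 2.01, SE 0.06, adjusted p = 1.99e-19). With the inhibitor the step was 3.68-fold (log2 1.88, SE 0.06, adjusted p = 8.67e-19). M1 libraries had 98.3, 98.3, 91.4 and 99.1 CPM, 2.39-fold below M0 (log2 change -1.26, SE 0.06, adjusted p = 3.84e-16) and 9.66-fold below M2 (adjusted p = 5.90e-25). The replicates were tight, with SDs of 2.997 to 8.91 CPM in the groups without inhibitor.

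ONX-0914 went with lower Fcgr2b in both polarized states. M1+ONX libraries had 49.5, 62.5, 69.3 and 64.8 CPM, all below the M1 libraries (log2 change -0.65, SE 0.06, adjusted p = 3.53e-09). M2+ONX libraries had 795, 831, 815 and 779.9 CPM, all below the M2 libraries (log2 change -0.21, SE 0.06, adjusted p = 0.00659). M0+ONX libraries had 218, 215, 219.9 and 222 CPM, just below the M0 libraries with no overlap, and the log2 change of -0.08 had a 95% interval of -0.21 to 0.05. The effect was lower in M1 than in M0 by 0.57 (difference -0.57, SE 0.09, adjusted p = 2.91e-05) and lower in M1 than in M2 by 0.44 (difference -0.44, SE 0.09, adjusted p = 0.000897). From high to low the order was M2, M2+ONX, M0, M0+ONX, M1 and M1+ONX, with no overlap between neighbours.

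B cells carry FcγRIIB as their only Fcγ receptor, and B cell markers also moved with the inhibitor. The list of 12 summed to 42.8 ± 2.196 CPM in M1+ONX and 82.8 ± 6.12 CPM in M1, to 64.6 ± 3.12 CPM in M2+ONX and 118 ± 4.25 CPM in M2, and to 63.6 ± 2.99 CPM in M0+ONX and 111 ± 3.47 CPM in M0. Of the 9 that passed the filter, 7 fell with ONX-0914 in M1, 8 in M2 and 8 in M0. The shares of all genes called lower were 27.7%, 18.8% and 11.4% in the same order. Most of each sum was Cd22, and Cd79a, a defining chain of the B cell receptor, averaged 0.142 CPM in M1+ONX and 1.001 CPM in M1, 0.284 CPM in M2+ONX and 1.12 CPM in M2, and 0.434 CPM in M0+ONX and 2.46 CPM in M0. Their part in the Fcgr2b result was not tested.

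Fcgrt encodes the heavy chain of FcRn. It had 12.0, 10.1, 10.7 and 11.5 CPM in M1+ONX, against 9.68, 14.8, 11.7 and 13.1 CPM in M1. In M2+ONX it had 15.8, 14.7, 14.2 and 11.7 CPM, against 13.6, 16.3, 12.0 and 15.3 CPM in M2. In M0+ONX it had 19.2, 17.3, 19.2 and 20.7 CPM, against 18.8, 18.7, 21.9 and 17.8 CPM in M0. The inhibitor and control libraries overlapped in each state. The log2 changes were -0.15 in M1 (95% interval -0.39 to 0.10), -0.02 in M2 (-0.25 to 0.21) and -0.01 in M0 (-0.23 to 0.21), none of them called. Both polarized states were lower than M0, by 1.57-fold in M1 (log2 change -0.65, SE 0.11, adjusted p = 1.29e-05) and 1.35-fold in M2 (log2 change -0.43, SE 0.11, adjusted p = 0.00253), without overlap. With the inhibitor in both groups the folds were 1.72 in M1+ONX and 1.36 in M2+ONX. M1 against M2 was not called (log2 change -0.22, adjusted p = 0.0990), but was called without M1 replicate 2 (-0.31) or M2 replicate 3 (-0.29).

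**Figure D3:**
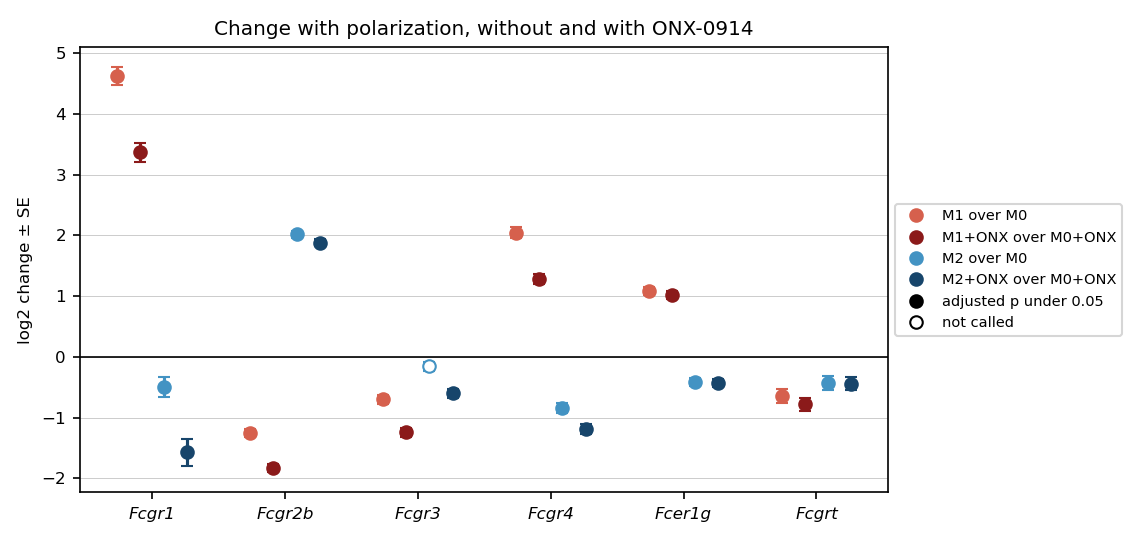
Log2 change of each member in M1 over M0 and M2 over M0, without and with ONX-0914 in both groups, with standard errors; filled points passed an adjusted p of 0.05. For Fcgr1 the M1 step is 4.62 without and 3.37 with the inhibitor, for Fcgr4 2.04 and 1.28, and for Fcgr2b in M2 2.01 and 1.88.

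The receptors were set on a common scale, CPM per kilobase of merged exons. On it Fcgr4 was the largest of the 4 Fcγ receptors in M1, and Fcgr3 in M2 and M0. This order depends on the lengths used. Without division by length, Fcgr1 (282 CPM) was above Fcgr4 (240 CPM) in M1, and Fcgr2b (934 CPM) above Fcgr3 (387 CPM) in M2. Among the 4 Fcγ receptors in M1, Fcgr4 made up 40.6 ± 0.819%, Fcgr3 32.6 ± 1.56%, Fcgr1 23.1 ± 2.36% and Fcgr2b 3.57 ± 0.306% of the summed level per kilobase (SD, n = 4). In M2, Fcgr3 made up 53.9 ± 1.27% and Fcgr2b 39.1 ± 1.34%, with Fcgr4 at 6.25 ± 0.326% and Fcgr1 at 0.764 ± 0.0835%. In M0, Fcgr3 alone made up 73.2 ± 0.198%. In M1+ONX, the Fcgr1 share was 8.35 ± 1.49%, against 23.1 ± 2.36% in M1, and the Fcgr4 share 50.7 ± 1.45%, against 40.6 ± 0.819% in M1; neither overlapped. These shares and the values of the next paragraphs are descriptions over the members and were not tested.

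The ratio of the activating receptors (Fcgr1, Fcgr3 and Fcgr4 summed, per kilobase) to Fcgr2b was 27.1 ± 2.42 in M1, 1.56 ± 0.0875 in M2 and 7.49 ± 0.376 in M0 (SD, n = 4 each), with no overlap between the 3. With the inhibitor it was 28.3 ± 7.66 in M1+ONX and 27.1 ± 2.42 in M1, and the widest value, 39.5, was M1+ONX replicate 1. It was 1.48 ± 0.0850 in M2+ONX and 1.56 ± 0.0875 in M2. Both of these pairs overlapped. In M0+ONX it was 8.83 ± 0.640, above all M0 libraries at 7.49 ± 0.376. The summed level of the 4 receptors was 303 ± 32.0 CPM per kilobase in M1+ONX and 469.6 ± 30.7 in M1, 344 ± 17.0 in M2+ONX and 413 ± 15.7 in M2, and 371 ± 21.2 in M0+ONX and 339 ± 13.1 in M0. Only the M0 pair overlapped. The ratio depends on the lengths used: merged exons of Fcgr2b span 5790 bases and its longest transcript 3544 bases, and with longest transcripts the ratio was 18.2 ± 1.61 in M1, 1.20 ± 0.0675 in M2 and 5.68 ± 0.277 in M0. With no division by length it was 8.15 ± 0.767 in M1, 0.458 ± 0.0252 in M2 and 2.16 ± 0.109 in M0. In M1+ONX it was then 7.59 ± 1.96, below the M1 mean. Fcgr3 and Fcgr2b share 50-base windows, but none of 150 bases, the length of a read. Without Fcgr3 the ratio was 17.96 ± 1.77 in M1, 0.180 ± 0.0109 in M2 and 1.27 ± 0.109 in M0. It was then 17.3 ± 4.55 in M1+ONX and 0.206 ± 0.0228 in M2+ONX. The order of the means within the M1 pair and the M2 pair thus depended on the setting, and these pairs overlapped in each. M0+ONX stayed above M0 in all settings.

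**Figure D4:**
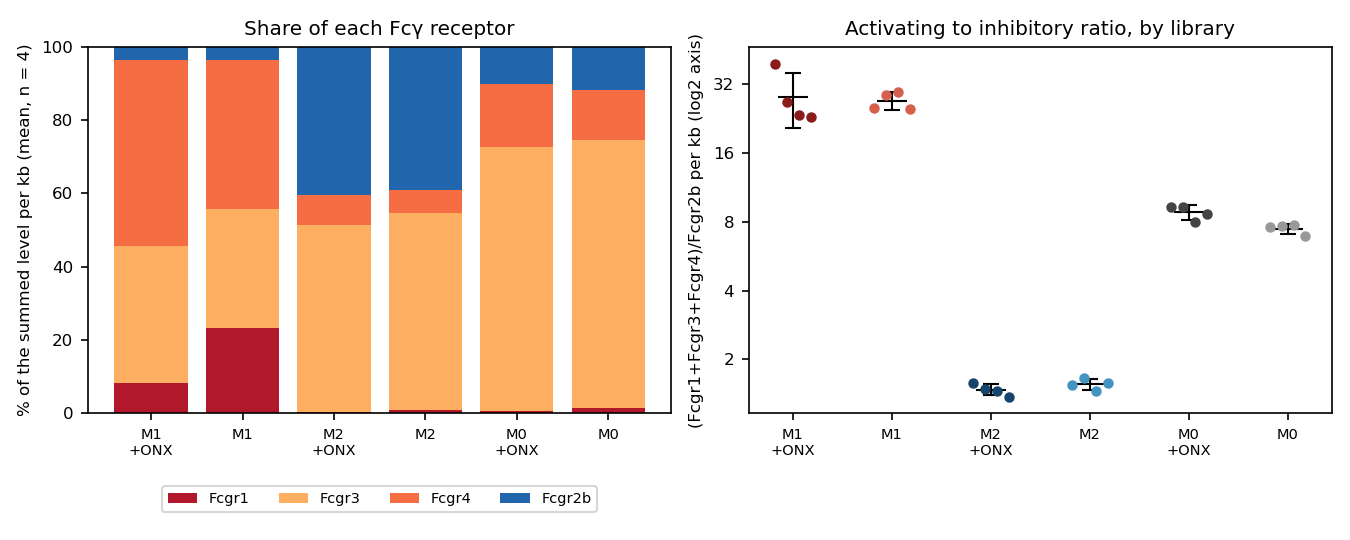
Left, mean share (%) of each Fcγ receptor in their summed level per kilobase, by group. Right, ratio of Fcgr1, Fcgr3 and Fcgr4 to Fcgr2b per kilobase in each library (log2 axis), with mean ± SD; the M1 groups lie at 23.1 or more, the M2 groups at 1.67 or less and the M0 groups between.

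The level of the γ chain per kilobase was 3.45 ± 0.438 times that of the activating receptors together in M1+ONX and 2.67 ± 0.192 times in M1. It was 1.78 ± 0.136 times in M2+ONX and 1.70 ± 0.0841 times in M2, and 1.47 ± 0.0817 times in M0+ONX and 1.91 ± 0.0408 times in M0. On this scale it was above the sum of these 3 receptors in every group. The M1 pair and the M0 pair did not overlap, while the M2 pair did. The place of the γ chain above the sum depends on the lengths used. Without division by length, Fcgr3 alone (465 CPM) was above Fcer1g (428 CPM) in M0+ONX. In M2, Fcgr3 (387 CPM) was also above Fcer1g (373 CPM).

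The genes with the most similar profile over the 24 libraries were found by the root mean square difference of centred log2 CPM among 9864 genes. The libraries share the 6 groups, so likeness mostly reflects group means. Fcgr2b was followed most closely by Mrc1, the mannose receptor and a marker of IL-4-treated macrophages, at 0.16 log2 units (Pearson r = 0.994). Mrc1 averaged 350 CPM in M2+ONX and 517 CPM in M2, 29.7 CPM in M1+ONX and 48.5 CPM in M1, and 119.6 CPM in M0+ONX and 121 CPM in M0. Next were Plekhf1 (0.30) and Smpd3 (0.32). The nearest to Fcgr1 was Tlr9, an endosomal DNA receptor, at 0.57 (r = 0.970), with 61.5 CPM in M1+ONX and 148 CPM in M1, followed by Timeless (0.61) and Tagap (0.67). For Fcgr4 they were Rnd1, Rasa4 and Parp8 (each 0.27), and for Fcgr3 Naaa (0.12), Rassf3 (0.13) and Prcp (0.14). For Fcer1g they were Rnf149 (0.11), Tmem219 (0.13) and Carhsp1 (0.13), and for Fcgrt Tmem176b (0.11), Lat2 (0.13) and Higd2a (0.13).

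Most of the listed kinases and adaptors that carry the activating signal fell with the inhibitor in M1 and in M2. Of 22 listed genes, 18 fell and 2 rose with ONX-0914 in M1 (median log2 change -0.43, against -0.08 over all genes), 13 fell and 2 rose in M2 (median -0.21, against -0.00118), and 9 fell and none rose in M0 (median -0.17, against -0.000824). The shares called lower among all genes were 27.7%, 18.8% and 11.4% in the same order. In M1 the largest falls were of Fgr, a Src-family kinase of myeloid cells (log2 change -1.64, adjusted p = 2.10e-13), Fyb, an adaptor of adhesion signalling (-1.03, adjusted p = 3.33e-14), and Rac2, a small GTPase of the phagocyte oxidase (-0.96, adjusted p = 8.69e-11). In M2 they were Fgr (-0.97, adjusted p = 5.55e-08) and Malt1 (-0.88, adjusted p = 1.10e-09). In M0, those that fell included Src (-0.51) and Malt1 (-0.51).

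Syk, the kinase that docks on the phosphorylated γ chain, fell in the 3 states. It averaged 554 ± 31.9 CPM in M1+ONX and 827 ± 64.4 CPM in M1 (log2 change -0.58, SE 0.05, adjusted p = 1.38e-09), 369.6 ± 9.43 CPM in M2+ONX and 446 ± 5.90 CPM in M2 (-0.27, SE 0.05, adjusted p = 0.000250), and 389 ± 8.996 CPM in M0+ONX and 469 ± 27.1 CPM in M0 (-0.27, SE 0.05, adjusted p = 0.000508). The effect on Syk was lower in M1 than in M0 (difference -0.30, SE 0.08, adjusted p = 0.00505) and than in M2 (difference -0.31, SE 0.08, adjusted p = 0.00658). The listed genes that rose in M1 were Tec, a kinase of the Btk family (0.50), and Gab2, a docking adaptor (0.31).

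Of 10 listed genes of the inhibitory side, 6 fell and 1 rose with ONX-0914 in M1, beside 27.7% of all genes called lower and 16.6% higher. In M2, 5 fell and 3 rose, beside 18.8% lower and 17.6% higher, and in M0, 1 fell and 2 rose, beside 11.4% lower and 9.54% higher. The median log2 change of the list was -0.24 in M1, -0.09 in M2 and -0.07 in M0. Without M1 replicate 2, 4 fell in M0 and 2 rose in M1, and the shares of all genes called in that fit are not given here. In M1 the largest falls were of Ptpn6, the phosphatase SHP-1 (log2 change -0.86, adjusted p = 2.48e-13), Csk, which restrains Src-family kinases (-0.73, adjusted p = 4.92e-10), and Inppl1, the phosphatase SHIP-2 (-0.52, adjusted p = 1.17e-07). Inpp5d, the SHIP-1 phosphatase recruited by FcγRIIB, had 57.3 ± 3.91 CPM in M1+ONX and 60.3 ± 5.56 CPM in M1, which was not called (log2 change -0.07). It had 113 ± 2.01 CPM in M2+ONX and 102 ± 2.60 CPM in M2 (log2 change 0.15, adjusted p = 0.0389), and 121 ± 1.90 CPM in M0+ONX and 111 ± 5.92 CPM in M0 (0.13, adjusted p = 0.121). Dok3, an adaptor of inhibitory signalling, rose in M2 (0.49, adjusted p = 4.39e-05) and M0 (0.26, adjusted p = 0.0226).

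**Figure D5:**
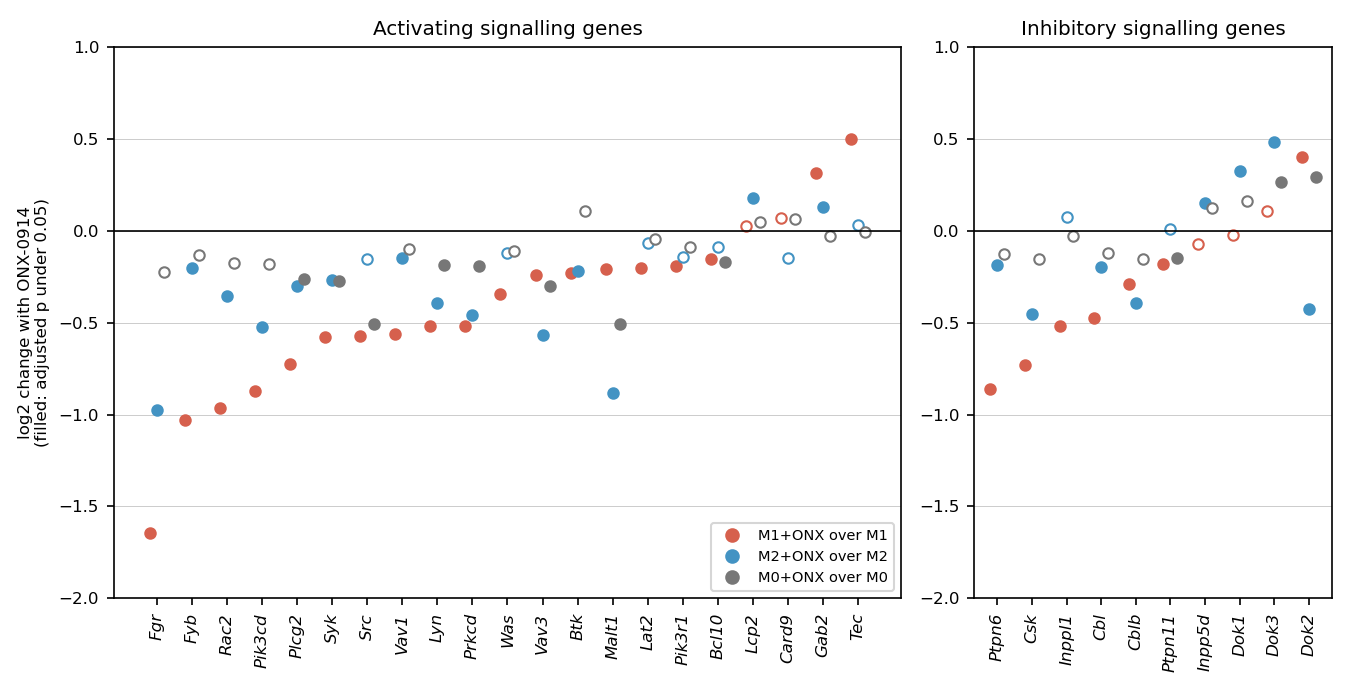
Log2 change with ONX-0914 in M1, M2 and M0 for activating and inhibitory signalling genes of the lists, ordered by the change in M1; filled points passed an adjusted p of 0.05. Both lists have genes on either side of 0 in M1, with Fgr at -1.64 and Ptpn6 at -0.86 the lowest of their lists.

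Polarization moved the same lists. In M1 against M0, 16 of 22 activating genes rose and 4 fell (median log2 change 0.83, against -0.02 over all genes). Among all genes tested, 34.6% were called higher and 34.2% lower. Those that rose included Src (3.59, adjusted p = 1.17e-23) and Malt1 (2.67, adjusted p = 6.10e-21). Of the 10 inhibitory genes, 7 rose, led by Ptpn6 (2.21) and Dok3 (1.10), and 3 fell, among them Inpp5d at 60.3 ± 5.56 CPM in M1 and 111 ± 5.92 CPM in M0 (-0.88, adjusted p = 1.67e-13). In M2 against M0, 13 of 22 activating genes fell and 4 rose, beside 17.5% of all genes called lower and 18.7% higher. Those that fell included Fyb (-1.04) and Fgr (-0.70). The inhibitory genes in M2 had 2 that rose and 4 that fell, with Cblb, a ubiquitin ligase, at 0.84 and Ptpn6 at -0.72. The share of inhibitory genes that rose in M2, and the share that fell in M1, were near those of all genes.

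Of 9 listed partners of the γ chain and of its sister adaptors, 7 passed the filter. In M1 against M0, 3 rose and 3 fell, beside 34.6% of all genes called higher and 34.2% lower, and in M2 against M0, 6 fell and none rose, beside 17.5% called lower. Clec4e, which encodes the γ-chain-coupled lectin receptor Mincle, was 32.6-fold higher in M1 than in M0 (log2 change 5.02, SE 0.22, adjusted p = 1.61e-17) and lower in M2 (-1.90, SE 0.20, adjusted p = 1.80e-08). With ONX-0914, 1 of the 7 rose and 3 fell in M1, 3 rose and 3 fell in M2, and 1 rose and 2 fell in M0, beside 44.3%, 36.4% and 21.0% of all genes called in the same order. Pira2, a paired activating receptor, fell in M1 (-0.70), M2 (-0.79) and M0 (-0.64). Its family holds near-identical copies, so its counts are uncertain. Tyrobp, the adaptor DAP12, had 354 ± 10.6 CPM in M1+ONX and 472 ± 84.7 CPM in M1 (log2 change -0.41, adjusted p = 0.000222), 472 ± 36.8 CPM in M2+ONX and 557 ± 18.8 CPM in M2 (-0.24, adjusted p = 0.0257), and 642 ± 34.8 CPM in M0+ONX and 743 ± 66.4 CPM in M0 (-0.21, adjusted p = 0.0760).

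Of 11 other Fc and IgG-binding receptors, 6 passed the filter, and with ONX-0914 3 fell in M1, 1 fell and 1 rose in M2, and 1 fell in M0 (2 without M1 replicate 2). The same shares of all genes called, 44.3%, 36.4% and 21.0%, stand beside these counts. They are from the fit on all libraries, and no share for the fit without M1 replicate 2 is given here. Trim21, the cytosolic antibody receptor, had 89.1 ± 5.91 CPM in M1+ONX and 122 ± 4.57 CPM in M1 (log2 change -0.46, adjusted p = 1.68e-07). It rose in M2, with 16.4 ± 0.631 CPM in M2+ONX and 12.6 ± 1.20 CPM in M2 (0.39, adjusted p = 4.43e-05), and the effects differed (M1 minus M2 -0.84, SE 0.09, adjusted p = 1.36e-07). In M0+ONX it had 14.3 ± 0.466 CPM and in M0 12.9 ± 0.589 CPM (0.15, adjusted p = 0.129). M1 was 9.45-fold above M0 for Trim21 (adjusted p = 2.79e-25). The others that fell, Fcmr in M1 and M0 and Fcrl5 in M1 and M2, are lymphocyte receptors that averaged at most 1.50 CPM in any group. The B cell values above moved with them, and their part was not tested.

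Of 10 genes of the FcRn partner and endosomal list, 4 fell and 1 rose with ONX-0914 in M1, 4 fell and 2 rose in M2, and 3 fell in M0. Beside these counts, 44.3%, 36.4% and 21.0% of all genes were called in the same order. Without M1 replicate 2, 7 fell in M0, and the share of all genes called in that fit is not given here. B2m, the light chain that FcRn shares with MHC class I, averaged 7180.4 ± 101 CPM in M1+ONX and 6333 ± 174 CPM in M1 (log2 change 0.18, adjusted p = 0.00796). It had 2952 ± 149 CPM in M2+ONX and 2666 ± 143 CPM in M2 (0.15, adjusted p = 0.0355), and 2445 ± 140.1 CPM in M0+ONX and 2672 ± 170.2 CPM in M0 (-0.13, adjusted p = 0.0973). M1 was 2.37-fold above M0 for B2m, while Fcgrt was lower. The largest fall was of Cd74, the invariant chain of MHC class II, at -0.75 in M1, -1.12 in M2 and -1.23 in M0. B cells also express Cd74, and their markers fell as given above. The part of B cells in the fall of Cd74 was not tested.

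Of 9 transcription factors known at Fc receptor genes, 7 rose in M1 against M0, beside 34.6% of all genes called higher, among them Irf1 (log2 change 5.26, adjusted p = 3.83e-27) and Nfkb1 (2.55, adjusted p = 4.01e-24), and 1 fell. In M2 against M0, 4 rose and 3 fell, beside 18.7% called higher and 17.5% lower, with Cebpa at 0.74 and Nfkb1 at 0.55 the highest and Irf8 at -0.56 the lowest. With ONX-0914, 5 fell and 1 rose in M1, 3 fell in M2 and 3 fell in M0. Beside these counts, 27.7%, 18.8% and 11.4% of all genes were called lower in the same order. Without M1 replicate 2, 5 fell in M0, and the share of all genes called lower in that fit is not given here. Spi1, which encodes PU.1, fell in M1 (-0.48, adjusted p = 1.07e-06), and Cebpa rose in M1 (0.31, adjusted p = 0.00264) and fell in M2 (-0.45, adjusted p = 3.15e-05) and M0 (-0.40, adjusted p = 0.000409). For Cebpa the effects differed (M1 minus M2 0.76, SE 0.11, adjusted p = 2.18e-05; M1 minus M0 0.71, SE 0.11, adjusted p = 3.81e-05).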

How the data were processed

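PolyA RNA of pooled peritoneal macrophages was sequenced as paired reads of 150 bases, per the labels. The authors deposited a table of raw counts per Ensembl gene with no normalization. Per the submitters' processing notes, FastQC 0.11.9, cutadapt 2.8, Bowtie2 2.2.5, Picard and mm10 were used; the role of each is not given in the sources used here, nor are the counting tool, the annotation it used and whether it used strand. Symbols, positions and exon lengths came from GENCODE M21 (GRCm38), which matched 54495 of 54532 features; the 37 others held 0.00253% of the counts.

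Counts were fitted in R 4.3.3 with edgeR 4.0.16: filterByExpr by group kept 14692 genes (99.9% of counts), TMM scaling was applied, and the quasi-likelihood fit had 1 mean for each of the 6 groups over all 24 libraries (18 residual degrees of freedom, no replicate block). The 11 comparisons were 8 pairs of groups and 3 differences between ONX-0914 effects, each adjusted by Benjamini-Hochberg over all genes tested; a gene was called at an adjusted p under 0.05, with no minimum fold. All tests were 2-sided. Rose and fell refer to called genes only. Standard errors are the log2 change over the square root of F, and 95% intervals use the t distribution with the moderated degrees of freedom. Levels are TMM-scaled CPM, as mean ± SD of 4 libraries, and per kilobase of merged exons where genes are compared. The script was tested on simulated data.

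No 2 replicates of a group agreed within sampling noise. The labels call the replicates independent but tie none to named mice. Alternatives were DESeq2 1.42.0, limma 3.58.1 (voom with quality weights), other filters, a replicate block, each comparison's libraries alone, and each library left out; list counts without M1 replicate 2 were chosen after seeing the data. The members and the gene lists were chosen with earlier results of these data known. The text names the 6 members, up to 3 called genes with the largest change per pathway list and comparison, the 3 nearest profiles per member (genes with a mean of at least 5 CPM in some group), and B2m, Trim21, Syk, Inpp5d and Tyrobp throughout; some genes that this rule names are not reported here, although the list counts include them. Tec, Gab2, the cell type genes and the second mention of Cebpa or Dok3 were added for their values or markers. Protein sequences were not used here.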

Additional observations from a re-analysis of the deposited data

Results flagged for a closer look

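Of 42 groups of 4 libraries screened for a value far from the rest (Dixon's test at its 95% critical value), 3 were marked, where chance gives about 1 in 20, or 2.1. Fcgr1 in M2+ONX replicate 1 was lowest at 1.38 CPM, with the next library at 2.31 CPM. Fcgr2b in M1 replicate 3 was lowest at 91.4 CPM, with the next at 98.3 CPM. The ratio of activating receptors to Fcgr2b in M0 replicate 4 was lowest at 6.92, with the next at 7.64.

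Of 18 tested differences between ONX-0914 effects, 8 passed an adjusted p of 0.05 (edgeR). Between M1 and M0 the log2 effects differed by -1.25 for Fcgr1, -0.57 for Fcgr2b, -0.54 for Fcgr3 and -0.77 for Fcgr4. Between M2 and M0 they differed by -1.08 for Fcgr1 and -0.45 for Fcgr3. Between M1 and M2 they differed by -0.44 for Fcgr2b and -0.42 for Fcgr4. Fcgr4 was the member whose change was called in opposite directions, higher with ONX-0914 in M0 (log2 0.46) and lower in M1 (-0.31).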

How the results depend on the processing

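No called change of a member reversed its direction under any alternative run. With each comparison's libraries alone, the members called numbered 3 for ONX-0914 in M1 (5 over all libraries), 4 for the difference between M2 and M0 (2) and 1 for the difference between M1 and M2 (2). Leaving out 1 library gave 1 to 3 called members for the difference between M2 and M0 and 1 to 2 for that between M1 and M2. Changes that were not called crossed 0 as follows. With voom the log2 values were 0.00161 (Fcgrt, ONX-0914 in M2), 0.0249 and 0.0254 (Fcer1g and Fcgrt, M1 minus M0), 0.0467 (Fcgrt, M2 minus M0), 0.00143 and 0.0391 (Fcgr1 and Fcer1g, M1 minus M2). Without a filter Fcgrt was 0.00293 (M2 minus M0), and at 1 CPM in 4 libraries 0.0017 (ONX-0914 in M0). On the comparison's libraries alone Fcer1g was 0.0355 (M1 minus M0) and 0.0696 (M1 minus M2), and Fcgr3 0.0149 (M1 minus M2). Leaving out 1 library, Fcgrt ran from -0.0534 to 0.0515 (ONX-0914 in M0), -0.0964 to 0.0600 (in M2) and -0.0822 to 0.0738 (M2 minus M0), and Fcer1g from -0.0881 to 0.0217 (M1 minus M0), -0.0470 to 0.0357 (M2 minus M0) and -0.0773 to 0.0328 (M1 minus M2).

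Outside the libraries named in the report, calls were gained for Fcgr3 in M2 against M0 (voom -0.17, 1 CPM filter -0.19, libraries alone -0.17), Fcgrt in M1 against M2 (voom -0.37), Fcgr4 in M2 minus M0 (DESeq2 -0.37, alone -0.37) and Fcgr2b in M2 minus M0 (alone -0.16), and lost for Fcgr4 in M1 minus M2 (alone -0.31). Over all genes, 31.5% were called for ONX-0914 in M0 with voom, 29.1% on the comparison's libraries alone and 9.68% of 28971 genes with no filter (21.0% as reported), and for M2 minus M0 12.6% with voom, 11.2% alone and 11.2% without M1 replicate 2 (6.17% as reported). Of the genes called, those higher made up 39.2% with DESeq2 size factors and 57.8% alone for M1 minus M2 (28.2%), 55.7% alone for M1 minus M0 (35.8%) and 45.3% alone for M2 minus M0 (55.7%); the median of all genes for M1 minus M2 was 0.05 alone, between -0.03 and -0.02 with DESeq2 and with no filter, and -0.07 as reported. The cause of these shifts was not tested. Over all genes, same-numbered replicates shared little deviation (correlations from -0.05 to 0.11), which cannot exclude pairing for single genes. The replicate block gave 3, 5 and 4 members called for ONX-0914 in M0, M1 and M2, as without it. It changed no other count of members. For Fcgr1 its adjusted p (edgeR) was 1.06e-05 for ONX-0914 in M0, against 0.000393 without the block. It was 0.00231 for M2 against M0 (0.0186 without) and 0.00109 for M2 minus M0 (0.0173 without). Ratios moved with the lengths used but kept the order M1, M0, M2. The means of M1+ONX and M1 changed order without division by length or without Fcgr3. Those of M2+ONX and M2 changed order without Fcgr3. Precision is limited by 4 pools per group and, for Fcgr1 in M2+ONX, by depth.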
